A study of Mus musculus with 6 samples.

Results

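The immunoglobulin heavy and light chain genes were read by 52 of the 45037 probe sets measured in mouse leukaemia cells. These 52 probe sets carry 26 distinct heavy and light chain gene symbols, of 19324 symbols on the array. They were taken by annotation alone: every probe set for which the platform annotation lists at least 1 gene of the Igh, Igk or Igl locus, leaving out Ighmbp2 and the surrogate light chain gene Igll1. By locus, 23 read heavy chain genes, 25 kappa genes and 4 lambda genes. Of the heavy chain probe sets, 18 were annotated to constant region genes only, 1 to a variable segment only and 4 to both. Of the kappa probe sets, 22 were annotated to variable segments only and 3 to variable segments together with the constant gene Igkc. Among the lambda probe sets, 3 were annotated to the variable segment Iglv1 and 1 to Iglv1 and Iglc1.

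The samples were BCR-ABL1-driven acute lymphoblastic leukaemias, a leukaemia of B cell precursors carrying the fusion kinase of the Philadelphia chromosome. They came in 2 groups of 3 arrays: AID-/- leukaemia, which by its genotype lacks both functional alleles, and AID+/+ leukaemia, which carries them intact. Both groups are labelled Balb/c and no treatment, age or time is given. The titles call the 3 arrays of a group biological replicates, but whether they came from separate animals or clones is not stated, so p-values measure the spread between these arrays, which may be technical.

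An antibody gene is assembled by V(D)J recombination, in which the RAG recombinase joins a variable segment to D and J segments in the heavy chain locus, or to a J segment in the kappa and lambda light chain loci. Pro-B cells rearrange the heavy chain first. A mu chain, the product of Ighm, then pairs with the surrogate light chain in the pre-B cell receptor, and light chain rearrangement follows, usually at kappa before lambda. Class switching from mu to gamma or alpha constant regions and somatic hypermutation come later. Unrearranged variable and constant segments can also be transcribed as germline transcripts. A 3' array reads any of these RNAs when they match its probes, so a probe set value does not separate rearranged from germline transcripts. Variable segments of 1 family are similar in sequence, so probe sets of different segments may read some of the same RNA. Fewer expressing cells and less RNA per cell cannot be told apart in these bulk samples.

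Values are log2 expression, so a difference of 1 is a doubling. Over all probe sets, arrays correlated at 0.991 to 0.994 within AID-/-, 0.995 to 0.996 within AID+/+ and 0.972 to 0.977 across the groups (Pearson's r, taken over probe sets that do not vary independently). The groups differed in sex-linked RNA: at its 3 probe sets Xist was lower in AID-/- leukaemia by 6.04 to 8.68 log2 units, and the Y-linked gene Kdm5d was higher by 5.08 and 1.02 at 2 of its 3 probe sets; at the third the difference was 0.42 (limma adjusted p = 0.108). The labels do not give sex, and sex-linked RNA split the arrays as genotype did. Every difference below may thus belong to either, or to the animals or clones the arrays came from, and these cannot be told apart.

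Kappa probe sets were higher in AID-/- leukaemia where they changed, and the brightest mu and VH probe sets were lower. Of the 52 probe sets, 9 rose in AID-/- leukaemia, 3 fell and the remaining 40 missed the threshold (limma, Benjamini-Hochberg adjusted p under 0.05 over all 45037 probe sets). The 9 higher ones were 7 kappa, 1 lambda and 1 Ighm probe set. Without probe sets marked _x_at or _s_at, whose probes can match several transcripts, 3 were higher, 2 of kappa variable segments and 1 of Ighm, and 0 were of Igkc or lambda. The 3 lower ones were all heavy chain: 2 of Ighm and the 1 of Ighv14-2. The called share was 23.1%, against 14.6% of all probe sets. By direction, 17.3% were higher, against 7.24% of all probe sets, and 5.77% were lower, against 7.39%. The median difference was 0.13 over the 52 probe sets and -0.04 over all probe sets. Without moderation of the variances, which leaves 4 residual degrees of freedom per probe set, 0 of the 52 passed, against 5.25% of all probe sets. At an unadjusted p under 0.05 that ordinary linear model gave 11 higher and 5 lower, and the smallest adjusted p was 0.0512. The share of all probe sets at that unadjusted cut was not counted, so these counts cannot be read as a result about the members. Leaving out 1 array gave 4 to 10 higher and 1 to 3 lower, where 9.56% to 13.6% of all probe sets were called. Of the members, 5 were higher without AID+/+ replicate 2 and 4 without AID+/+ replicate 3, and 1 was lower without AID+/+ replicate 1. The fits without an AID+/+ array also called the smallest shares of all probe sets, 9.56% to 10.6%.

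Most of these probe sets lay low on the scale. The mean over the 6 arrays was above that of the median probe set, 4.89, for 14 and below it for 38. Among the 14 brighter ones, 4 were higher and 3 lower, where 12.2% and 12.1% of all probe sets above the median were higher and lower, 24.3% together. Among the 38 dimmer ones 5 were called, all higher, where 4.98% of all dimmer probe sets were called. Groups did not overlap for 23 probe sets, against 32.9% of all probe sets. All AID-/- arrays were above all AID+/+ arrays for 17 of them (14.2% of all probe sets) and below for 6 (18.7%).

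**Figure D1:**
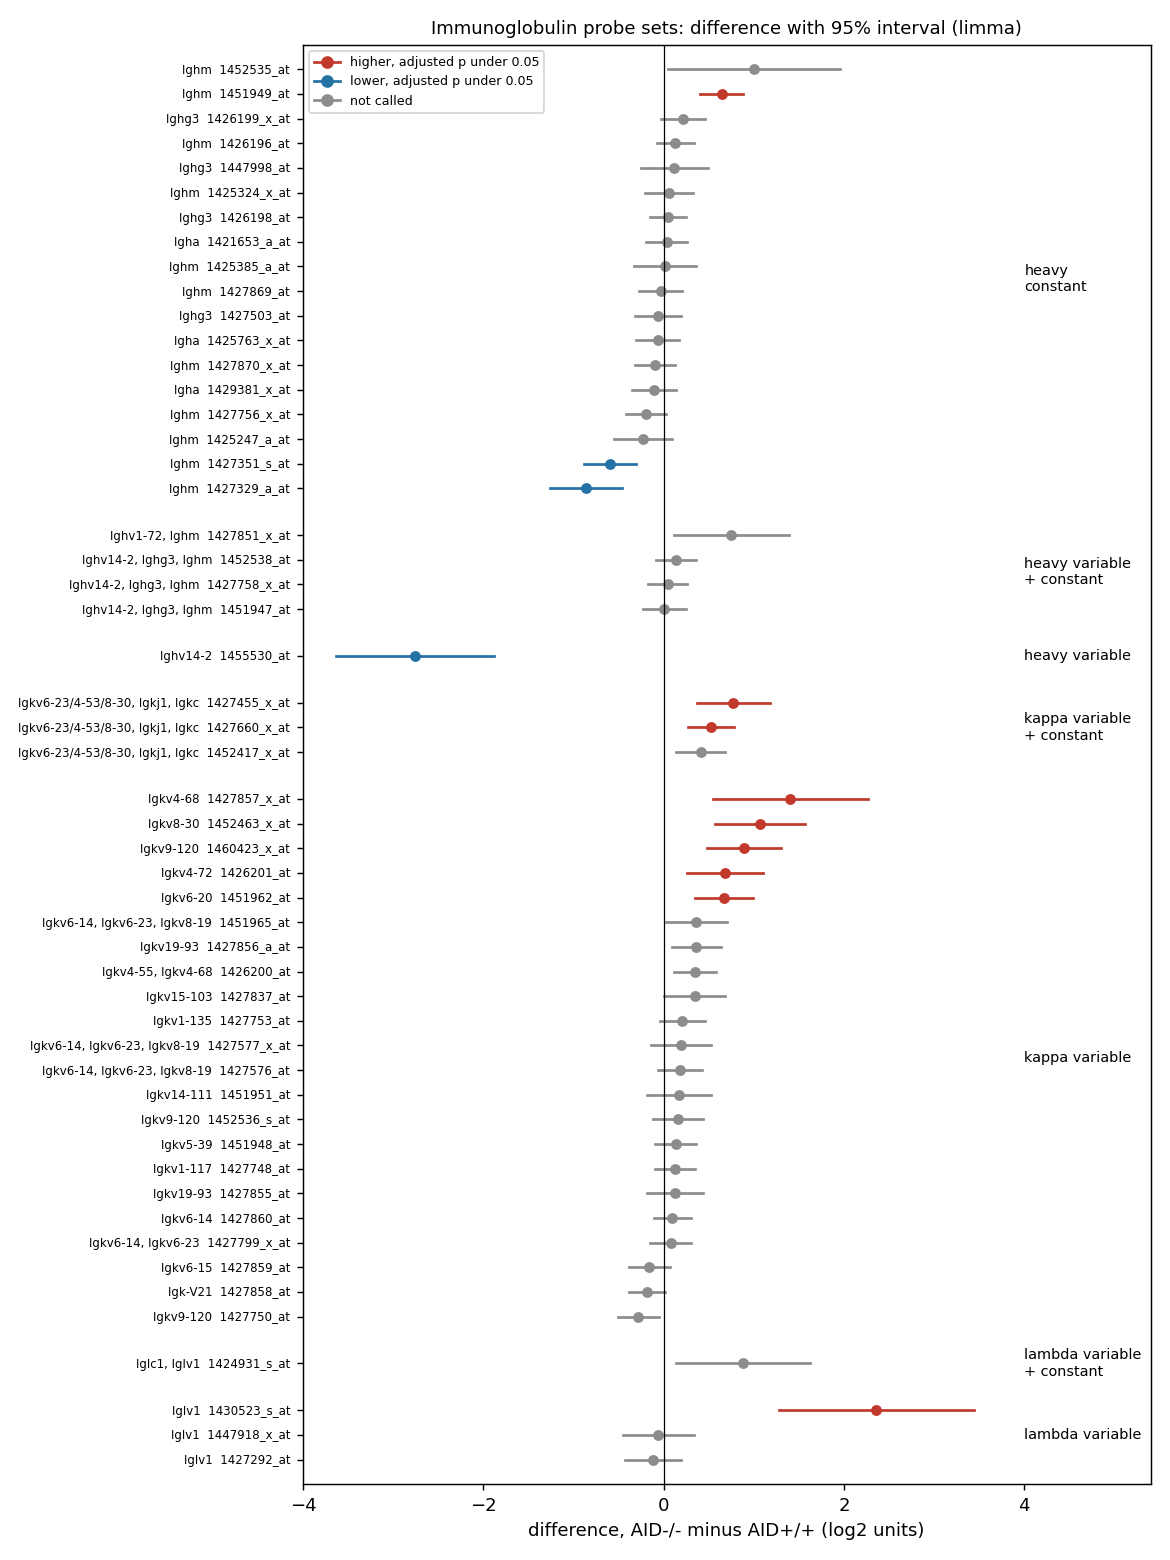
Difference between AID-/- and AID+/+ leukaemia (log2 units, AID-/- minus AID+/+) for each of the 52 immunoglobulin probe sets, ordered by locus and by variable or constant annotation. Points are differences and lines 95% intervals from limma. The 7 called kappa probe sets lie to the right of 0, and the lowest point is Ighv14-2 at -2.76.

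Mu heavy chain RNA, read by 11 probe sets annotated to Ighm alone, was lower in AID-/- leukaemia at the 2 brightest of them. At 1427329_a_at the AID-/- arrays were at 13.06, 12.33 and 12.89 and the AID+/+ arrays at 13.70, 13.59 and 13.57, replicates 1 to 3 in each case. The groups did not overlap, replicate 2 was the lowest AID-/- array, and the AID+/+ arrays lay within 0.13 of each other. The value fell by 0.86 (SE 0.18), a 1.82-fold decrease, with a limma adjusted p of 0.0128. At 1427351_s_at the values were 12.89, 12.44 and 12.78 in AID-/- against 13.31, 13.31 and 13.28 in AID+/+ leukaemia. It showed the same order of the AID-/- arrays and fell by 0.60 (SE 0.13, adjusted p = 0.0147). Both probe sets were above the 99th percentile of all probe sets, so Ighm stayed high on the scale in both groups. Both calls were near the threshold without 1 array: the first was lost without AID+/+ replicate 1 (adjusted p = 0.0524), and the second without AID+/+ replicate 1, 2 or 3 (0.0513, 0.0502 and 0.0518).

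None of the remaining Ighm probe sets was called lower. One of them, 1451949_at, rose in AID-/- leukaemia, from 3.93, 3.83 and 4.05 in AID+/+ to 4.55, 4.72 and 4.46 in AID-/- arrays. The groups did not overlap, and the difference was 0.64 (SE 0.11, limma adjusted p = 0.00507), a call that was kept whichever array was left out. It lay below the median probe set in both groups. The probe set 1452535_at was at 5.67, 7.58 and 6.21 in AID-/- and 5.31, 5.38 and 5.77 in AID+/+ leukaemia. Its difference of 1.00 (SE 0.42) had AID-/- replicate 2 as its highest array. The groups overlapped, and the difference did not pass (limma adjusted p = 0.162), but it passed without AID-/- replicate 1 (adjusted p = 0.0387). The other 7 differed by -0.23 to 0.13 without passing: 1425247_a_at by -0.23, 1427756_x_at by -0.19, 1427870_x_at by -0.10, 1427869_at by -0.03, 1425385_a_at by 0.02, 1425324_x_at by 0.06 and 1426196_at by 0.13. Of these, 1427870_x_at was the only one above the median probe set, at 6.67 to 6.88 in AID-/- and 6.82 to 6.97 in AID+/+ arrays. All AID-/- arrays of 1427756_x_at lay below all AID+/+ arrays, as at the bright pair, and those of 1426196_at lay above. A change of the mu transcript was thus not read alike by all probe sets that carry its name, and which RNA each of them reads was not tested.

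No probe set of a switched constant region was called. Ighg3, the gamma-3 constant region, had 4 probe sets with differences of 0.05 (1426198_at), 0.22 (1426199_x_at), -0.06 (1427503_at) and 0.12 (1447998_at). The smallest adjusted p of the 4 was 0.236 (limma), and array values ran from 2.35 to 5.70. That p belonged to 1426199_x_at, where all AID-/- arrays were above all AID+/+ arrays. Its 95% interval ran from -0.03 to 0.46, and that of 1447998_at from -0.25 to 0.49. Igha, the alpha constant region, had 3 probe sets at 0.03 (1421653_a_at), -0.06 (1425763_x_at) and -0.10 (1429381_x_at), with array values of 4.62 to 5.95. The 95% interval of the last ran from -0.35 to 0.14, so a change of more than 0.35 in either direction lay outside it. No member was annotated to Ighd, Ighe or another gamma gene.

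Probe sets annotated to heavy chain variable and constant genes together were dim and did not pass. The 3 of them annotated to Ighv14-2, Ighg3 and Ighm differed by 0.05 (1427758_x_at), 0.01 (1451947_at) and 0.14 (1452538_at). The fourth, 1427851_x_at, annotated to Ighv1-72 and Ighm, was at 3.98, 4.72 and 3.59 in AID-/- and 2.96, 3.50 and 3.57 in AID+/+ arrays. Every AID-/- array was above every AID+/+ array, but replicate 3 by only a small margin, and the difference of 0.75 (SE 0.28) did not pass (limma adjusted p = 0.121).

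The largest difference of any immunoglobulin probe set was the decrease of Ighv14-2, a heavy chain variable segment and the only VH segment read by a probe set of its own. At 1455530_at the AID-/- arrays were at 7.44, 5.83 and 7.24 and the AID+/+ arrays at 9.93, 9.49 and 9.36. The groups did not overlap, and AID-/- replicate 2 was the lowest array, as at the bright Ighm probe sets. The fall was 2.76 (SE 0.38), or 6.75-fold, with a limma adjusted p of 0.00223. In the 6 fits that left out 1 array the difference was -3.06 to -2.25 and passed each time, at an adjusted p of 0.0143 or less. Ighv14-2 is the 39th of 183 VH segments when counted from Ighm in the RefSeq table. The 3 dim probe sets that share its name with Ighg3 and Ighm showed no such decrease, so the difference rests on 1 probe set.

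Of the 3 probe sets annotated to the kappa constant region together with variable segments, 2 rose in AID-/- leukaemia. They carry the same 5 gene symbols (Igkv6-23, Igkv4-53, Igkv8-30, Igkj1 and Igkc) and so are not independent of each other, and all are _x_at probe sets. No probe set read Igkc alone, so variable and constant region RNA cannot be told apart in them; they are called the Igkc probe sets here. At 1427455_x_at the AID-/- arrays were at 11.51, 11.38 and 10.98 and the AID+/+ arrays at 10.81, 10.28 and 10.46. At 1427660_x_at they were at 11.79, 11.74 and 11.48 against 11.11, 11.08 and 11.24, and at 1452417_x_at at 11.53, 11.49 and 11.18 against 10.94, 10.92 and 11.11. The groups did not overlap at any of the 3, and replicate 3 was the lowest AID-/- array at each. The increases were 0.77 (SE 0.18, limma adjusted p = 0.0204), 0.53 (SE 0.11, adjusted p = 0.0144) and 0.41 (SE 0.12, adjusted p = 0.0547), or 1.71-fold, 1.44-fold and 1.33-fold, so the third did not pass.

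These kappa calls lay near the threshold, and each was lost in more than 1 of the 6 fits without 1 array. Those fits called 9.56% to 13.6% of all probe sets, against 14.6% with all arrays. For 1427455_x_at the limma adjusted p was 0.0545 without AID-/- replicate 1, 0.0552 without AID-/- replicate 2, 0.0718 without AID+/+ replicate 2 and 0.0760 without AID+/+ replicate 3. For 1427660_x_at it was 0.0514 without AID+/+ replicate 1 and 0.0556 without AID+/+ replicate 2. Conversely 1452417_x_at passed without AID-/- replicate 3 (0.0258), with median-centred arrays (0.0433) and with an intensity trend (0.0279). The direction was the same in all of these fits.

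The size of the opposite differences can be given as 1 value for each array. The mean of the 3 Igkc probe sets minus the mean of the 2 brightest Ighm probe sets, a pair chosen after their values were seen, was -1.36, -0.85 and -1.62 in AID-/- arrays and -2.55, -2.69 and -2.49 in AID+/+ arrays. The group means were -1.28 ± 0.40 and -2.58 ± 0.10 (SD, n = 3), a shift of 1.30 log2 units. The groups did not overlap at any of these 5 probe sets, so the separation of this value was fixed by that choice and adds no evidence. Of the shift, 0.57 was the difference at the Igkc probe sets and the rest that at Ighm. A value of the difference itself is not a ratio of molecules, since different probe sets are read with different efficiency; only its change between arrays can be compared.

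**Figure D2:**
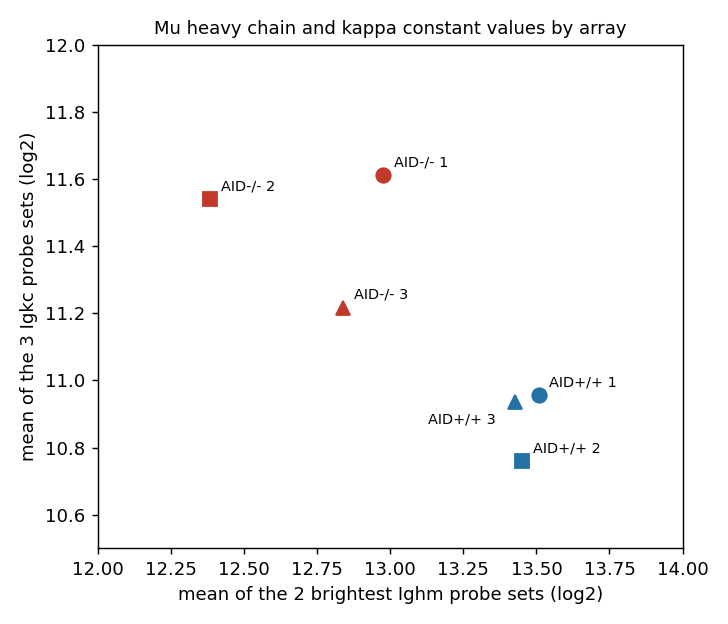
Mean of the 3 Igkc probe sets against the mean of the 2 brightest Ighm probe sets (both log2 expression), 1 point for each array. The AID-/- arrays lie to the upper left, with 11.22 to 11.61 for Igkc and 12.38 to 12.97 for Ighm, and the AID+/+ arrays lie close together at the lower right.

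Kappa variable segments leaned higher, and none of the 22 was called lower: 5 rose and 17 did not pass. The brightest was Igkv8-30 at 1452463_x_at, at 10.10, 9.98 and 9.54 in AID-/- and 9.26, 8.49 and 8.67 in AID+/+ leukaemia. Its arrays stood in the same order as at the Igkc probe set 1427455_x_at, which carries Igkv8-30 among its symbols. The groups did not overlap, and the value rose by 1.07 (SE 0.22), or 2.09-fold, with a limma adjusted p of 0.0131 that was 0.0572 without AID+/+ replicate 3.

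The other 4 called kappa segments were dim, between the 38.0th and 42.6th percentile of all probe sets. Igkv9-120 at 1460423_x_at was at 4.25, 4.78 and 5.01 in AID-/- and 3.73, 3.87 and 3.77 in AID+/+ arrays, 0.89 higher (SE 0.18, adjusted p = 0.0119), and it was called in all 6 fits without 1 array, with 0.0487 as the largest adjusted p. The remaining probe sets for that segment did not rise with it: 1427750_at differed by -0.28 and 1452536_s_at by 0.16, and neither passed. Igkv6-20 at 1451962_at was at 4.18, 4.65 and 4.51 against 3.87, 3.60 and 3.84, 0.67 higher (SE 0.14, adjusted p = 0.0143). It missed the threshold when AID-/- replicate 3 (0.0524) or AID+/+ replicate 2 (0.0546) was left out.

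Both remaining calls were of the Igkv4 family. Igkv4-68 at 1427857_x_at was at 6.09, 4.73 and 4.45 in AID-/- against 3.79, 3.86 and 3.40 in AID+/+ leukaemia. AID-/- replicate 1 stood well above the rest, and the difference was 1.41 (SE 0.38, limma adjusted p = 0.0398). With any single AID+/+ array removed it was no longer called (0.0980, 0.0836 and 0.135 for replicates 1, 2 and 3). Igkv4-72 at 1426201_at was at 4.74, 4.61 and 4.09 against 3.80, 4.02 and 3.59, 0.68 higher (SE 0.18, adjusted p = 0.0400). The call did not survive removal of AID-/- replicate 1 (0.0996), AID-/- replicate 2 (0.102), AID+/+ replicate 1 (0.108) or AID+/+ replicate 3 (0.140). A probe set shared by Igkv4-55 and Igkv4-68, 1426200_at, was higher by 0.35 with groups that did not overlap, just outside the threshold (adjusted p = 0.057).

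Kappa variable probe sets that did not pass differed by -0.28 to 0.36, with 14 of the 17 differences above 0. Over all probe sets, 18929 of 45037 differences were above 0. Some of the 17 carry the same segment symbols and so are not independent. All AID-/- arrays were above all AID+/+ arrays for 4 of the 17 and below for 2 (14.2% and 18.7% of all probe sets). Among the brighter of the 17, Igkv14-111 (1451951_at) was at 5.92 to 6.36 in AID-/- and 5.76 to 6.24 in AID+/+ arrays. Igkv19-93 (1427855_at) was at 5.86 to 6.02 and 5.53 to 6.04, and both overlapped. At a dimmer probe set of Igkv19-93, 1427856_a_at, the groups did not overlap. Its difference of 0.36 did not pass (limma adjusted p = 0.0826). In the RefSeq order of 162 kappa variable segments counted from Igkc, the called ones are the 21st (Igkv6-20), 32nd (Igkv8-30), 78th (Igkv4-68), 83rd (Igkv4-72) and 143rd (Igkv9-120). They were thus not confined to 1 end of that order. Segments without a call lay between them, such as Igkv5-39, the 41st (1451948_at, 0.14), and Igkv15-103, the 124th (1427837_at, 0.35).

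**Figure D3:**
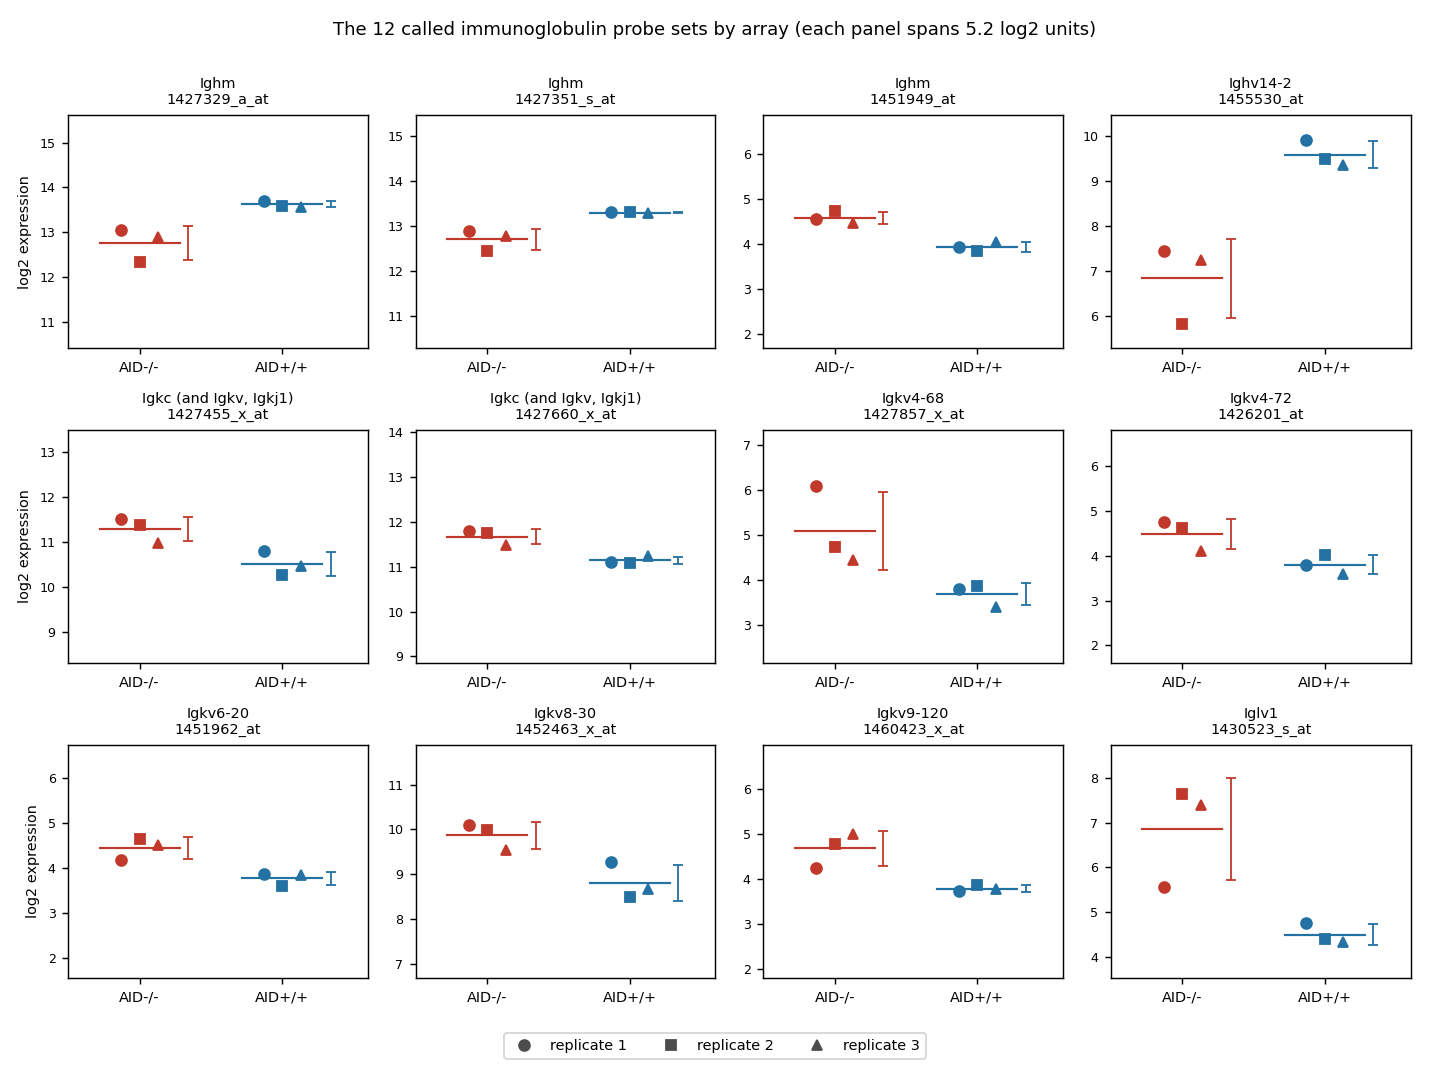
Log2 expression of the 12 called immunoglobulin probe sets in each array, with replicates 1 to 3 as circle, square and triangle, the group mean as a horizontal line and the SD of 3 arrays as a bar. In every panel the groups do not overlap; the AID-/- arrays are most spread at Iglv1, Igkv4-68 and Ighv14-2.

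Lambda RNA was higher in some AID-/- arrays more than in others. Iglv1, a lambda variable segment, was read at 1430523_s_at at 5.56, 7.63 and 7.40 in AID-/- and 4.77, 4.41 and 4.33 in AID+/+ leukaemia. AID-/- replicates 2 and 3 were clearly high and replicate 1 was not far above the AID+/+ arrays. The rise was 2.36 (SE 0.47), or 5.14-fold, with a limma adjusted p of 0.0120, which was 0.0506 without AID+/+ replicate 3. The probe set for Iglc1 and Iglv1, 1424931_s_at, had the same pattern among AID-/- arrays, at 3.90, 5.22 and 5.22 against 3.88, 3.74 and 4.08. Its groups overlapped and the difference of 0.88 (SE 0.32) did not pass (adjusted p = 0.116). Without AID-/- replicate 1 it was 1.32 and passed (adjusted p = 4.59e-04). The other probe sets of Iglv1, 1427292_at and 1447918_x_at, differed by -0.12 and -0.06 and stayed below 4 in all arrays.

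Spread between arrays of a group was larger in AID-/- leukaemia. A range of at least 1 log2 unit among the 3 AID-/- arrays was found for 6 of the 52 probe sets, 11.5%, against 2.20% of all probe sets. Among the 3 AID+/+ arrays it was found for 0 of the 52, with a widest range of 0.77 at Igkv8-30, against 0.691% of all probe sets. The 6 were Iglv1 (1430523_s_at, range 2.07), Ighm (1452535_at, 1.91), Igkv4-68 (1427857_x_at, 1.65), Ighv14-2 (1455530_at, 1.61), Iglc1 with Iglv1 (1424931_s_at, 1.32) and Ighv1-72 with Ighm (1427851_x_at, 1.13). They did not mark 1 odd array. AID-/- replicate 1 was the highest for Igkv4-68 and the lowest for both lambda probe sets, and replicate 2 was the highest for 1452535_at and 1427851_x_at and the lowest for Ighv14-2. Over all probe sets the median range was 0.24 in AID-/- and 0.23 in AID+/+ arrays, and over the 52 it was 0.30 and 0.21. These are descriptions without a test.

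**Figure D4:**
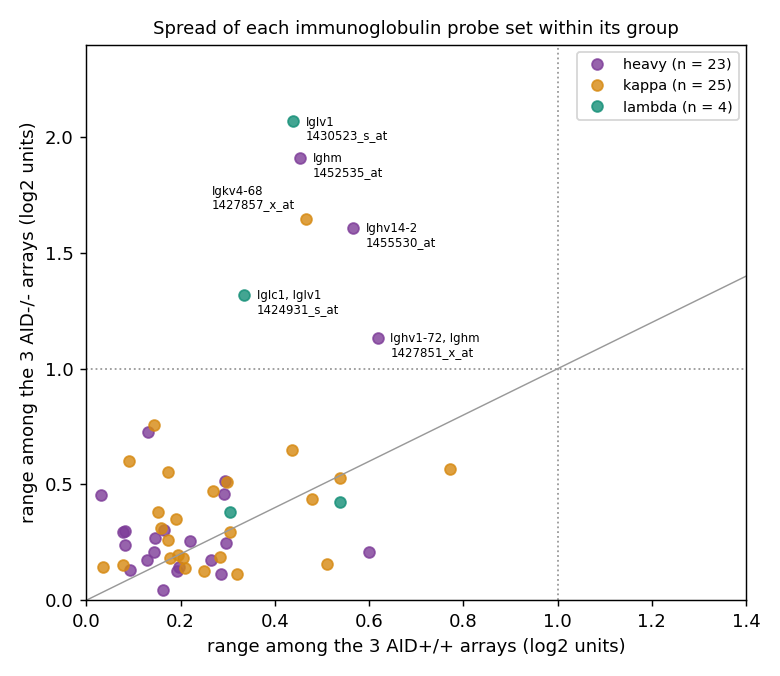
Range (highest minus lowest array, log2 units) of each of the 52 immunoglobulin probe sets among the 3 AID-/- arrays against that among the 3 AID+/+ arrays, coloured by locus, with the line of equal range and dotted lines at 1. The 6 named points exceed 1 in AID-/- leukaemia, and none exceeds 1 in AID+/+ leukaemia.

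RNA for the partners of mu in the pre-B cell receptor did not differ detectably. Of 5 measured genes 0 passed: Igll1 and Vpreb1 (surrogate light chain), Vpreb3, and Cd79a and Cd79b (signal transduction) differed by -0.19, 0.05, 0.13, 0.23 and 0.35, with a smallest limma adjusted p of 0.180. Over all genes, each by its brightest probe set, 17.1% were called, 9.49% higher and 7.66% lower. At an unadjusted p under 0.05, Cd79b alone differed, and without AID-/- replicate 2 it was called (0.50, limma adjusted p = 0.0466).

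V(D)J recombination genes included 4 of 10 that were higher and 0 that were lower, where 9.49% and 7.66% of all genes were. Rag1 and Rag2, which encode the recombinase, were higher by 3.74 and 2.78. Dntt, the terminal transferase of V(D)J junctions, was at 7.66, 11.39 and 9.88 in AID-/- and 3.82, 4.22 and 4.11 in AID+/+ arrays (limma adjusted p = 0.00209). Replicate 2, the highest for Dntt, Rag1 and Rag2, was the AID-/- array with the lowest Ighv14-2 and bright Ighm values. Xrcc6, encoding the end-joining protein Ku70, was higher by 0.79. Of 21 regulators of the immunoglobulin loci 2 were higher and 4 lower, where 9.49% and 7.66% of all genes were. The count of higher regulators was thus near the share over all genes. Id3 and Id2, inhibitors of E proteins, were higher by 1.52 and fell by 2.45, respectively. Foxo1, a transcription factor that drives Rag expression, rose by 1.07, whereas Bach2 fell by 1.77 and Ikzf1, encoding Ikaros, fell by 0.97. Irf4, the remaining lower regulator, fell by 0.95.

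Genes of immunoglobulin secretion included 4 of 10 higher and 0 lower, where 9.49% and 7.66% of all genes were. Creld2 and Mzb1, of the endoplasmic reticulum, were higher by 1.01 and 0.48, and the plasma cell regulators Xbp1 and Prdm1 by 1.14 and 1.21. Jchain, the joining chain of secreted IgM and IgA, was at 5.37, 6.73 and 5.09 in AID-/- and 5.66, 5.28 and 5.93 in AID+/+ arrays and did not pass (limma adjusted p = 0.896). The call on Mzb1 was lost without AID+/+ replicate 1, 2 or 3 (0.0555, 0.0562 and 0.0527), that on Xbp1 when AID-/- replicate 3, AID+/+ replicate 1 or AID+/+ replicate 2 was removed (0.0503, 0.0695 and 0.0640), and that on Prdm1 without AID+/+ replicate 1 or 2 (0.0758 and 0.0767). Without AID+/+ replicate 1, or without replicate 2, 1 of the 4 was called.

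Markers of the cells in these samples were B-lineage in both groups. All 7 measured B-lineage markers lay above the median probe set, with array means of 11.22 to 11.44 in AID-/- and 11.09 to 11.37 in AID+/+, and 0 of 7 differed. Over all genes, each by its brightest probe set, 9.49% were called higher and 7.66% lower. Mature B cell markers were lower in AID-/- leukaemia for 4 of 9 genes (Cd22, Cr2, Ccr6 and Cd72), with array means of 5.58 to 6.21 against 6.76 to 7.07. Plasma cell markers were higher for 3 of 7 (Xbp1, Prdm1 and Mzb1), and their array means, 6.93 to 7.57 against 6.72 to 6.95, overlapped. Sdc1 and Tnfrsf17 of that list differed by -0.42 and -0.15 without passing, and Sdc1 was called lower without AID-/- replicate 3. Of the 10 myeloid markers, 2 were higher (Fcgr3 by 2.11 and Lyz2 by 0.76) and none was called lower, and the median difference of the list was -0.19. The array means of the myeloid list, 4.29 to 4.47 against 4.05 to 4.35, overlapped. Of 9 T cell markers 1 was lower (Cd28, by 0.77), and Cd2 had a larger difference of -2.18, with groups that did not overlap, that did not pass (limma adjusted p = 0.0543). The array means of the T cell list were 4.41 to 4.74 against 4.93 to 5.06, and its median difference was -0.10. Those means include Cd2, the brightest gene of the list in both groups. Cd3e, Cd3d and Cd3g differed by -0.05, -0.13 and -0.06 without passing. No erythroid or stromal marker, of 5 and 6, was called. Their part in the immunoglobulin differences was not tested.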

How the data were processed

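Total RNA of 6 leukaemia samples was hybridised to Affymetrix arrays as biotinylated cRNA, per the labels' protocols. The deposited values are log2 expression values; RMA and Partek appear in the submitters' processing notes, and versions and genome build are not given in the sources used here. Values ran from 2.15 to 14.33, with array medians of 4.85 to 4.90, and the number of arrays limits the precision.

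From 45101 probe sets 64 array controls were left out. Symbols came from the platform annotation, which named 1 gene for 34945 probe sets, several for 932 and none for 9160. Members were matched by symbol, and variable or constant by the symbol; a probe set with both was counted apart. Other genes were represented by the brightest probe set naming them alone, with symbols updated by Entrez identifier to RefSeq (GRCm38.p6). RefSeq also gave the segment order, in which segment pseudogenes were counted. Whether the loci of Balb/c cells have the same segments in that order was not checked. Group differences, AID-/- minus AID+/+, were fitted over all 45037 probe sets with limma 3.58.1 in R 4.3.3 (group only, two-sided, Benjamini-Hochberg, threshold 0.05) and checked on simulated data.

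Members and lists were chosen with earlier results of these data known. Described in full by rule were probe sets with a constant region symbol and the 8 largest called differences in each direction. So were the 6 brightest others and the 6 widest ranges. Of each other list up to 5 called genes were named by rule, and Irf4 was added after its value was seen. Alternatives were scaling, dim probe sets, moderation, array weights, replicate block, thresholds, membership and leaving out each array. The targeted gene's own level is not reported here.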

Additional observations from a re-analysis of the deposited data

How the results depend on the processing

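No call on a probe set or gene named in the text changed sign in any alternative run. The 12 called probe sets all stayed called under quantile normalization, median centring, an intensity trend, array weights and the replicate block, and 0 stayed called without moderation. Same-numbered arrays did not deviate together (correlations of deviations -0.05, -0.07 and 0.03), so numbers were not used as pairs; with the replicate block 9 were higher and 3 lower, and over all probe sets 5369 were called in place of 6589. Leaving out 1 array kept 6 to 11 of the 12, and 3 of the 12 were kept in all 6 such fits. No detection calls were used, so differences of dim probe sets hold little more than direction.

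Counts moved by over 1.5 times as follows. Without moderation, where 5.25% of all probe sets were called, 0 were higher and 0 lower, in each class. The other genes higher in that fit were 2 for V(D)J recombination, 1 for regulators (with 2 lower) and 1 for secretion. Among probe sets above the median 5 were higher, with 0 heavy constant and 1 kappa variable, and 3 ranges reached 1 in AID-/-. At an adjusted p under 0.01, 1 was higher and 1 lower, with 0 in the lower heavy constant and the higher kappa and lambda classes. Asking for 1 log2 unit as well left 3 higher and 1 lower, with 2 kappa variable and 0 heavy constant or Igkc. Without probe sets marked _x_at or _s_at, whose probes can match several transcripts, 3 were higher, with 2 kappa variable, 0 Igkc, 0 lambda and 1 lower heavy constant, and 2 ranges reached 1. With members of 1 symbol 0 Igkc probe sets remained. With array weights 1 lambda probe set with a constant symbol was higher. A range of 2 log2 units was reached by 1.

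In fits without 1 array the calls numbered 4 to 10 higher and 1 to 3 lower, where 9.56% to 13.6% of all probe sets were called. By class these were heavy constant 1 to 2 higher and 0 to 2 lower, Igkc 0 to 3, kappa variable 2 to 5, lambda variable 0 to 1 and lambda with a constant symbol 0 to 1. Other genes called were, for the pre-B receptor partners, 0 to 1 higher, and for secretion 1 to 4 higher and 0 to 1 lower (Sdc1, without AID-/- replicate 3).

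Signs changed for 9 of the 52 probe sets, none called in any fit where its sign had changed; the 16 that the naming rule left out were compared after seeing the data. Quantile normalization gave 0.0078 for 1427869_at, and array weights gave -0.0144 for 1425385_a_at and -0.0310 for 1451947_at. Over the fits without 1 array the range was -0.0437 to 0.0765 for 1421653_a_at, -0.118 to 0.0154 for 1425763_x_at, -0.0299 to 0.126 for 1425324_x_at, -0.131 to 0.127 for 1425385_a_at, -0.122 to 0.0211 for 1427869_at, -0.0838 to 0.0640 for 1451947_at, -0.0054 to 0.250 for 1427855_at, -0.194 to 0.0101 for 1427292_at and -0.183 to 0.117 for 1447918_x_at. The causes were not tested.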
